A study of Homo sapiens with 4 samples.

Results

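The 37 genes described here make up the cell junctions and keratin filaments of epithelial cells, together with the factors known for driving epithelial cells toward a mesenchymal state. They were chosen by symbol, as genes of epithelial junctions and keratins and as factors of epithelial-mesenchymal transition (EMT), with the claudins left out. All 37 were found among the 61533 gene identifiers of a count table, each as 1 identifier. They comprise 28 epithelial genes, 7 mesenchymal transcription factors, and CDH2 and VIM, which stand apart because both are common mesenchymal markers. The counts come from RNA sequencing of Caki-1, an established human renal cell carcinoma line, described by its labels as having a wild-type (WT) genotype in the control arm and as TFE3-KD in the other. Lentivirus brought in either a control sequence (shControl) or short hairpin RNA against TFE3 (shTFE3), with 2 libraries per group and 4 in all. All cells were grown in McCoy's 5A medium with 10% fetal bovine serum and were replated 24 hours after infection. They received puromycin at 1 µg/ml 12 hours later and were collected after 3 days of selection. How many hairpin sequences were used, and whether the replicates are separate infections, is not given in the labels. The p-values therefore measure the spread between these libraries, which may be technical.

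Epithelial cells hold together through adherens junctions, tight junctions and desmosomes. In adherens junctions cadherins bind across the cell gap and catenins tie them to actin, tight junctions seal the space between cells, and desmosomes anchor keratin filaments. During EMT factors of the SNAI, ZEB and TWIST families repress E-cadherin (CDH1) and other epithelial genes, while vimentin and N-cadherin (CDH2) rise. Proximal tubule cells of the kidney, from which clear cell renal carcinoma is thought to arise, are unusual epithelia because they carry N-cadherin and cadherin-6 and little E-cadherin. TFE3 belongs to the MiT/TFE family of DNA-binding regulators and binds the E-box CACGTG, whereas SNAI and ZEB factors bind the E-box CACCTG.

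Library totals lay between 17270180 and 17742519 counts. TFE3, the targeted gene, was at 131 and 128 CPM (counts relative to library size after TMM scaling, the usual CPM unit) in shControl and at 70.1 and 66.9 CPM in shTFE3, 52.9% of the control mean. Of 8 genes fixed as markers of the renal epithelial lineage, PAX8 was expressed at a mean of 439 CPM in shControl, while PAX2 and CA9 had no count in any library. Of the 6 tested genes of this list 3 passed by edgeR's test: LHX1 fell (log2 fold change -0.80, adjusted p 9.25e-07), CDH6 fell (-0.55, adjusted p 5.95e-07), and NDUFA4L2 rose (1.94, adjusted p 0.00335) from 5 and 4 counts to 16 and 21. Their part in the results below was not tested. Over all tested genes 23.3% passed. The share among these 6 rests on few genes, and its difference from all genes was not tested. Of 13 markers of leukocytes, endothelium, fibroblasts and pericytes, 9 had at most 5 counts in every library, PTPRC, CDH5, COL1A2, DCN and LUM among them, and 4 (ITGAM, PECAM1, COL1A1 and PDGFRB) were tested without passing. Their summed level was 23.7 to 24.4 CPM in shControl and 23.6 to 23.9 CPM in shTFE3. In such bulk RNA, fewer cells of a kind and less RNA per cell cannot be told apart.

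Promoter sequence was searched for 19 of the 37 genes in RefSeq windows on GRCh38.p14. No window was searched for the other genes, which does not show that they have none. Sequences of 3 genes that fell, DSG2, DSC2 and NECTIN2, are shown because their RNA moved the same way while the E-boxes in the windows shown differ. Among the genes that passed, CDH2, JUP and CTNNB1 also have windows, which are not printed. CDH2, which fell, holds CACCTG 0 times in each window. JUP, which rose, holds it 2 times in 1 window and 0 times in the other, and CTNNB1, which also rose, holds it 0 times. These counts are over the full 250 bases, exons included. The longest exon-free run of the JUP window with 2 matches holds CACCTG 0 times. DSC2 has another RefSeq start, whose window (chromosome 18, 31101261 to 31101510) holds CACCTG 0 times and is not printed. DSG2 and DSC2 encode the desmosomal cadherins desmoglein 2 and desmocollin 2, and NECTIN2 an adhesion molecule of adherens junctions. Each run is read 5′ to 3′ on the strand of the gene and starts 250 bases before the RefSeq start. It ends where the first exon of GENCODE release 29 begins, and capitals mark CACCTG on either strand (CAGGTG as read here). The runs are chr18:31497927-31498042 (plus strand) for DSG2, chr18:31102523-31102671 (minus strand) for DSC2 and chr19:44846047-44846174 (plus strand) for NECTIN2.
DSG2: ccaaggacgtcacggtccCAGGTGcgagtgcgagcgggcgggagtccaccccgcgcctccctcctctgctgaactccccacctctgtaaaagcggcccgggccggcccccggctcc
DSC2: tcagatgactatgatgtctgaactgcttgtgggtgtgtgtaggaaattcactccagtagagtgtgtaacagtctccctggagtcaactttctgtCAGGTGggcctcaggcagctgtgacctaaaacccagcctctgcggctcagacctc
NECTIN2: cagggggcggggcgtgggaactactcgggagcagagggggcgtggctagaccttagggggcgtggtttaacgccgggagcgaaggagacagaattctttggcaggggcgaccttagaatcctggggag
The DSG2 and DSC2 runs each hold CACCTG 1 time, and the NECTIN2 run holds it 0 times. In the full 250 bases of these windows DSG2 holds it 2 times, DSC2 1 time and NECTIN2 0 times. Over the full 250 bases before each start, CACCTG on either strand was in 10 of 37 windows of the 19 genes, against 17.5% of all 35116 windows. Some genes have several windows, and 8 of the 19 genes had the motif in at least 1. The TFE3 motif CACGTG, which reads the same on both strands and shares no 6-base match with CACCTG, was in 2 of the 37 windows (1 each of CGN and TJP3) and in 6.34% of all windows. These matches are letters in a window and were not tested as binding sites.

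Of the 37 genes, 32 had enough counts for edgeR's quasi-likelihood test, and 10 of these passed at an adjusted p under 0.05, 2 higher and 8 lower in shTFE3. Over all 15950 tested genes 23.3% passed, 10.3% higher and 12.9% lower, beside 31.2% of the 32. This difference in share rests on few genes and was not tested. None of the 10 changed by as much as 2-fold. Their absolute log2 fold changes ran from 0.16 (CTNNB1) to 0.79 (PKP2), as the plot of fold changes shows. The groups did not overlap in CPM for 23 of the 32 genes, against 60.3% of all tested genes. Under the alternative without a filter on low counts only CDH2 of the 10 still passed, and that fit called 384 genes in all.

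**Figure D1:**
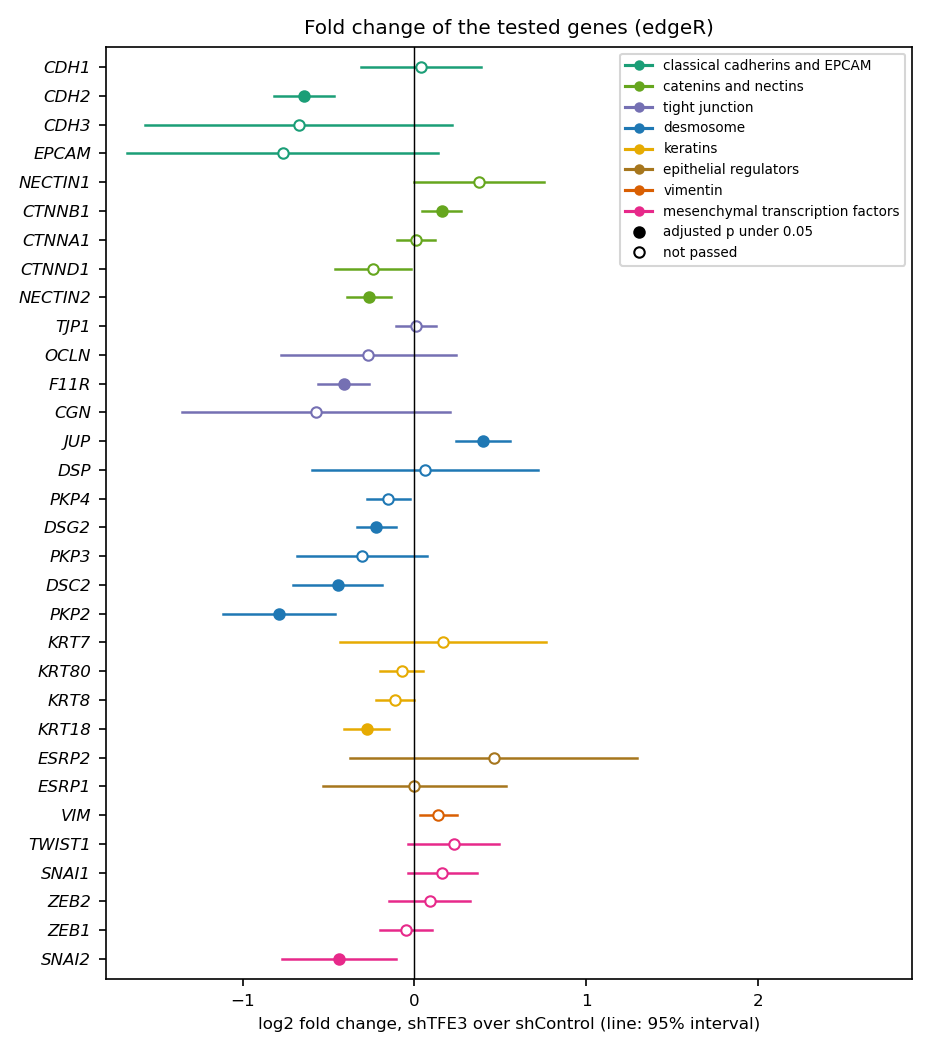
Log2 fold change of shTFE3 over shControl (x axis) for the 32 tested genes, ordered by role, with the 95% interval as a line; filled points passed edgeR's test at an adjusted p under 0.05. The 8 filled points left of 0 run from PKP2 (-0.79) to DSG2 (-0.22), and JUP and CTNNB1 lie right of it.

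CDH2 encodes N-cadherin, the cadherin of proximal tubule and of mesenchymal cells. It was at 36.1 and 35.2 CPM in the shControl libraries and at 23.3 and 22.3 CPM in the shTFE3 libraries. Both knockdown libraries were below both controls, and the mean fell to 64.0% of the control. The log2 fold change of CDH2 (ENSG00000170558, chromosome 18, 27950966 to 28177446, minus strand, GRCh38) was -0.64 (SE 0.084, edgeR adjusted p 2.45e-06). It passed under all 11 alternatives tried, and the authors' deposited table, which holds genes with an absolute log2 fold change of at least 0.585, lists it as down at -0.64.

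CDH1 encodes E-cadherin, the main cadherin of most epithelia and the gene repressed in EMT. It was at 4.87 and 5.75 CPM in shControl against 6.12 and 4.78 CPM in shTFE3, and the groups overlapped. The log2 fold change of CDH1 was 0.038, with a 95% interval of -0.31 to 0.39 (edgeR adjusted p 0.907). Within each library CDH1 had 0.135 and 0.164 counts per count of CDH2 in shControl, and 0.263 and 0.215 in shTFE3. This count ratio was higher in both knockdown libraries, and the difference comes with the fall of CDH2 at a CDH1 level that did not pass.

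CDH3, the P-cadherin gene, had 14 and 12 counts in shControl against 9 and 8 in shTFE3. EPCAM, an adhesion protein used as a marker of carcinoma cells, had 21 and 10 counts in shControl against 8 and 11 in shTFE3. Neither passed (edgeR adjusted p 0.288 and 0.225), and the 95% interval of EPCAM ran from -1.67 to 0.14 on the log2 scale, which takes in a fall of more than 2-fold as well as no change.

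Per kilobase of exon, other cadherins stood above both. CDH6 (cadherin-6, a cadherin of the proximal tubule) was at 19.9 and 21.1 CPM per kilobase in shControl, 23.9 times the CDH1 mean, and at 15.1 and 12.99 in shTFE3. CDH17 (liver-intestine cadherin) was at 8.21 and 8.20 in shControl and at 3.27 and 3.52 in shTFE3, and CDH2 was at 7.28 and 7.10 against 4.71 and 4.50. CDH16 (kidney-specific cadherin) followed at 5.26 and 6.12 against 6.23 and 5.63, and CDH13 at 4.99 and 4.76 against 4.07 and 4.05. CDH1 stood at 0.788 and 0.931 against 0.991 and 0.773 CPM per kilobase. In the control libraries CDH17 was above CDH2, and in the knockdown libraries CDH2 was above CDH17. CDH16 and CDH13 were close to each other in shControl, with CDH13 below CDH16 in each library. By edgeR's test CDH6 (log2 fold change -0.55, adjusted p 5.95e-07), CDH17 (-1.27, adjusted p 2.39e-10) and CDH13 (-0.26, adjusted p 0.008) fell, and CDH16 (0.059, adjusted p 0.726) did not pass.

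**Figure D2:**
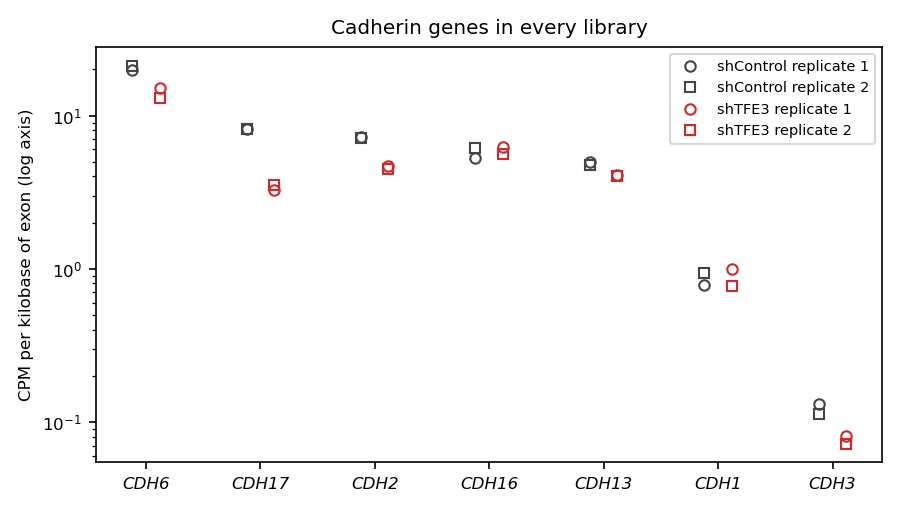
Level of 7 cadherin genes in CPM per kilobase of exon (y axis, log scale) in each of the 4 libraries, black for shControl and red for shTFE3. CDH6, CDH17, CDH2, CDH13 and CDH3 lie lower in both red libraries (CDH3 did not pass), while CDH16 and CDH1 overlap.

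The intracellular partners of cadherins went in different directions. CTNNB1 encodes β-catenin, which links cadherins to α-catenin and also acts in Wnt signalling. It had 355 and 332 CPM in shControl and 380 and 387 CPM in shTFE3. The groups did not overlap, but the rise was small, 0.16 on the log2 scale (SE 0.055, adjusted p 0.0381 by edgeR). It did not pass by DESeq2 (adjusted p 0.0605), with the replicate block (adjusted p 0.0633), or with any 1 library left out, where the edgeR adjusted p ranged from 0.0711 (without shControl replicate 1) to 0.419 (without shControl replicate 2).

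JUP encodes plakoglobin (γ-catenin), a close relative of β-catenin that sits in both desmosomes and adherens junctions. Its level was 73.4 and 62.0 CPM in shControl against 94.6 and 84.0 CPM in shTFE3. All values of the knockdown lay above the controls, and the log2 fold change of JUP (ENSG00000173801, chromosome 17, 41754604 to 41786931, minus strand) was 0.40 (SE 0.076, edgeR adjusted p 0.000341). Without shTFE3 replicate 1 the log2 fold change was 0.31 (adjusted p 0.133) and without shTFE3 replicate 2 it was 0.48 (adjusted p 0.0548). Without shControl replicates 1 and 2 in turn it was 0.53 and 0.28, and both passed.

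CTNNA1 (α-catenin, which binds actin) was at 701 and 709 CPM in shControl and 685 and 735 in shTFE3, with a 95% interval of -0.10 to 0.12 for the log2 fold change. CTNND1 (p120-catenin, which keeps cadherins at the membrane) had 18.8 and 21.4 CPM against 18.5 and 15.5 CPM and did not pass (log2 fold change -0.24, edgeR adjusted p 0.107). Among the nectins, which start cell contacts next to cadherins, NECTIN2 fell from 115 and 110 CPM to 96.6 and 90.3 CPM. NECTIN2 thus changed by -0.26 on the log2 scale (SE 0.063, adjusted p 0.00283 by edgeR), with an adjusted p of 0.0988 without shTFE3 replicate 2. NECTIN1, at 3.22 and 3.87 CPM in shControl and 4.79 and 4.44 CPM in shTFE3, did not pass (log2 fold change 0.38, edgeR adjusted p 0.144).

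Among the tight junction genes 1 of 4 tested fell (25.0% called, beside 23.3% of all tested genes). F11R encodes JAM-A, a membrane protein of tight junctions. It had 56.4 and 53.8 CPM in shControl against 41.2 and 41.6 CPM in shTFE3, and the knockdown libraries were close to each other and below both controls. The log2 fold change of F11R (ENSG00000158769, chromosome 1, 160995211 to 161021348, minus strand) was -0.41 (SE 0.072, edgeR adjusted p 0.000133), and it passed with each single library left out. An annotated gene on the same strand, AL591806.3, shares 36.6% of the F11R exon bases and had 1 to 3 counts. These low counts do not show whether reads in the shared bases were counted for F11R.

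TJP1 encodes the scaffold ZO-1 and was the most abundant of the group, at 171 and 166 CPM in shControl and 169 and 171 in shTFE3. Its 95% interval of -0.10 to 0.13 on the log2 scale (TJP1, edgeR adjusted p 0.914) does not reach the -0.41 of F11R. OCLN (occludin) had 39 and 38 counts against 29 and 38, and CGN (cingulin, a plaque protein) 23 and 14 against 15 and 11. Neither passed (edgeR adjusted p 0.486 and 0.303). OCLN has a pseudogene with 14 to 34 counts per library, so reads could be split between the copies. TJP3 (ZO-3) had 3, 0, 5 and 3 counts in shControl replicates 1 and 2 and shTFE3 replicates 1 and 2 and was not tested.

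All 7 desmosome genes were tested: 3 fell, 1 rose (JUP, above) and 3 did not pass (57.1% called, beside 23.3% of all tested genes). All 4 calls were lost when shTFE3 replicate 2 was left out. PKP2 encodes plakophilin 2, a plaque protein that binds desmoplakin. It was at 7.80 and 6.99 CPM in shControl and at 4.45 and 4.10 CPM in shTFE3, 57.9% of the control mean. Its log2 fold change of -0.79 was the largest of the 10 (SE 0.159, edgeR adjusted p 0.000587; ENSG00000057294, chromosome 12, 32790745 to 32896840, minus strand). Without shTFE3 replicate 2 PKP2 had an edgeR adjusted p of 0.0600 at -0.73. In the authors' deposited table it is listed as down at -0.79, and it and CDH2 are the 2 of the 37 genes that the table holds.

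DSC2, for which 1 of 2 promoter windows holds a CAGGTG, was at 10.8 and 11.3 CPM in shControl and 8.46 and 7.76 CPM in shTFE3. The groups did not overlap, and the log2 fold change of DSC2 was -0.45 (SE 0.126, edgeR adjusted p 0.0111). DSG2, the most abundant desmosome gene per kilobase of exon, was at 220 and 225 CPM in shControl and 190 and 192 CPM in shTFE3, a difference of -0.22 on the log2 scale (SE 0.055, adjusted p 0.00432 by edgeR). Both calls were lost with some libraries left out: leaving out shControl replicate 2, shTFE3 replicate 1 or shTFE3 replicate 2 gave DSC2 an edgeR adjusted p of 0.0913, 0.0684 or 0.126 and DSG2 one of 0.0664, 0.0614 or 0.0595. DSC2 also did not pass by DESeq2 (adjusted p 0.125).

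The other plakophilins had lower values in the knockdown without passing. PKP4 was at 125 and 121 CPM against 108 and 114 CPM (log2 fold change -0.15, edgeR adjusted p 0.0699), and PKP3 at 4.34 and 4.58 CPM against 3.90 and 3.32 CPM (-0.31, edgeR adjusted p 0.247). DSP encodes desmoplakin, the link between the plaque and keratin filaments, and had only 23 and 19 counts in shControl against 28 and 18 in shTFE3. Per kilobase of exon the DSP mean in shControl, 0.122 CPM, stood far below the 35.9 CPM of DSG2 and the 13.7 CPM of JUP. The desmosomal cadherins and plakoglobin were thus expressed in cells in which the desmoplakin transcript was near the lower limit of the test. DSC3, a neighbour of DSC2 in the desmosomal cadherin cluster and not among the 37, rose from 48 and 40 counts to 84 and 62 (log2 fold change 0.66, edgeR adjusted p 0.0245, and 0.21 by DESeq2). Leaving out shControl replicate 2, shTFE3 replicate 1 or shTFE3 replicate 2 gave DSC3 an edgeR adjusted p of 0.178, 0.256 or 0.0629.

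**Figure D3:**
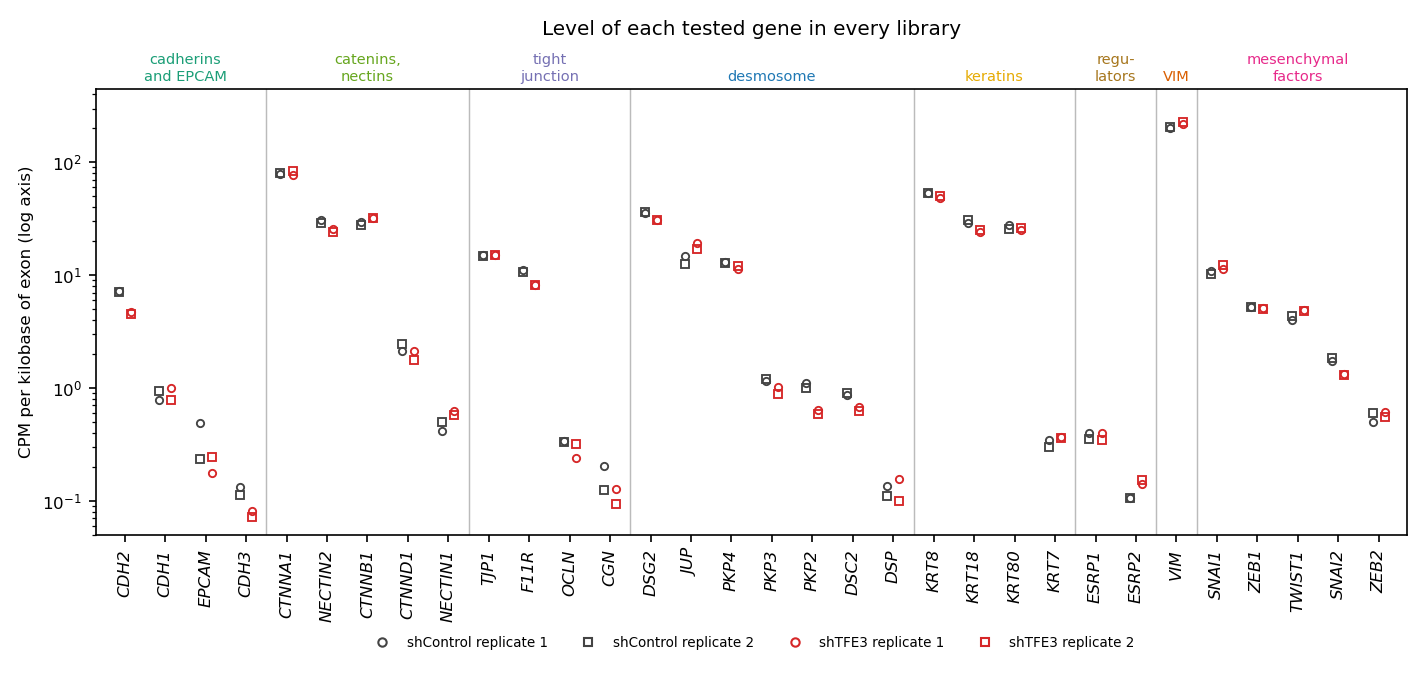
Level of each of the 32 tested genes in CPM per kilobase of exon (y axis, log scale) in the 4 libraries, grouped by role and ordered by the shControl mean within each role. VIM stands above all others at a shControl mean of 204, and the desmosome genes run from DSG2 at 35.9 down to DSP at 0.122.

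Of 4 tested keratins 1 fell (25.0% called, beside 23.3% of all tested genes). KRT8 and KRT18, which pair into the filaments of simple epithelia, were at 53.3 and 29.7 CPM per kilobase of exon in shControl, and KRT80 was at 26.9. KRT7 was at 0.322, and KRT19 had 1, 0, 2 and 0 counts and was not tested. KRT18 fell, from 93.0 and 98.4 CPM to 77.7 and 80.1 CPM, a difference of -0.28 on the log2 scale (SE 0.064, adjusted p 0.00191 by edgeR). Leaving out shTFE3 replicate 1 or 2 gave KRT18 an adjusted p of 0.0739 or 0.0575. KRT8 was at 369 and 364 CPM in shControl and 329 and 349 CPM in shTFE3, lower in both knockdown libraries without passing (log2 fold change -0.11, edgeR adjusted p 0.142). The KRT18 count per KRT8 count was 0.252 and 0.270 in the controls against 0.236 and 0.230 in the knockdown. KRT80 (121 and 113 CPM against 109 and 113 CPM) and KRT7 (24 and 21 counts against 27 and 26) did not pass. KRT8 and KRT18 overlap by 525 exon bases on opposite strands and have 51 and 67 named pseudogenes, whose counts came to 4.28% and 1.87% of those of the parent genes. Since the strand setting is not known, some reads of the pair could be assigned to the wrong gene.

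The 3 epithelial regulators among the 37 genes were low. ESRP1 and ESRP2 encode splicing regulators that keep epithelial isoforms. ESRP1 had 33 and 29 counts in shControl against 35 and 30 in shTFE3, and ESRP2 had 10 and 10 against 14 and 15. Neither passed (edgeR adjusted p 0.999 and 0.461). GRHL2, a transcription factor that maintains epithelial junction genes, had 1 count in 1 of 4 libraries. A gene at 0 counts could be present at up to 0.174 CPM, the level of 3 counts, with counting error alone.

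On the mesenchymal side VIM, the intermediate filament gene of mesenchymal cells and of many cultured lines, had the highest level of all 37 genes per kilobase of exon. It was at 1040 and 1065 CPM in shControl and 1134 and 1185 CPM in shTFE3. Both knockdown libraries were above both controls, but the log2 fold change of VIM, 0.14 (SE 0.052), did not pass, with an edgeR adjusted p of 0.0545. It passed with at least 50 counts required in 2 libraries (adjusted p 0.0376) and by limma-voom (adjusted p 0.0338), so the call turns on the setting.

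Of the 7 mesenchymal transcription factors 5 were tested, and 1, SNAI2, fell (20.0% called, beside 23.3% of all tested genes). SNAI2 encodes SLUG, a zinc finger repressor of CDH1. Its level was 5.92 and 6.22 CPM in shControl against 4.51 and 4.44 CPM in shTFE3, and the groups did not overlap. The log2 difference for SNAI2 was -0.44 (SE 0.161, adjusted p 0.0498 by edgeR). This call is at the threshold: it held under 1 of 11 alternatives, at least 50 counts in 2 libraries, and the adjusted p was 0.0507 with RLE factors and 0.311 by DESeq2. With single libraries left out it ranged from 0.134 (without shControl replicate 1) to 0.232 (without shControl replicate 2).

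SNAI1, the close relative SNAIL, was at 18.4 and 17.2 CPM in shControl and at 19.1 and 20.7 CPM in shTFE3 (log2 fold change 0.16, 95% interval -0.039 to 0.37, edgeR adjusted p 0.25). TWIST1, a helix-loop-helix factor, was at 8.15 and 8.75 CPM against 10.1 and 9.72 CPM (0.23, interval -0.035 to 0.49, edgeR adjusted p 0.212). In both genes the knockdown libraries lay above the controls by less than the test requires. ZEB1 was at 44.9 and 45.3 CPM against 43.9 and 43.3 CPM (-0.049, interval -0.20 to 0.10, edgeR adjusted p 0.686). ZEB2 was at 12.4 and 14.9 CPM against 15.2 and 13.9 CPM, with overlapping groups (0.089, interval -0.15 to 0.32, edgeR adjusted p 0.636). PRRX1 had 1 count in each shControl library against 0 in each shTFE3 library, and TWIST2 had none in any library. Per kilobase of exon in shControl the order was SNAI1 (10.6), ZEB1 (5.22), TWIST1 (4.16), SNAI2 (1.79) and ZEB2 (0.546), so transcripts of several EMT factors were present next to KRT8 and KRT18. ZEB1 has an antisense neighbour, ZEB1-AS1, with 98 to 121 counts per library that shares 366 exon bases.

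**Figure D4:**
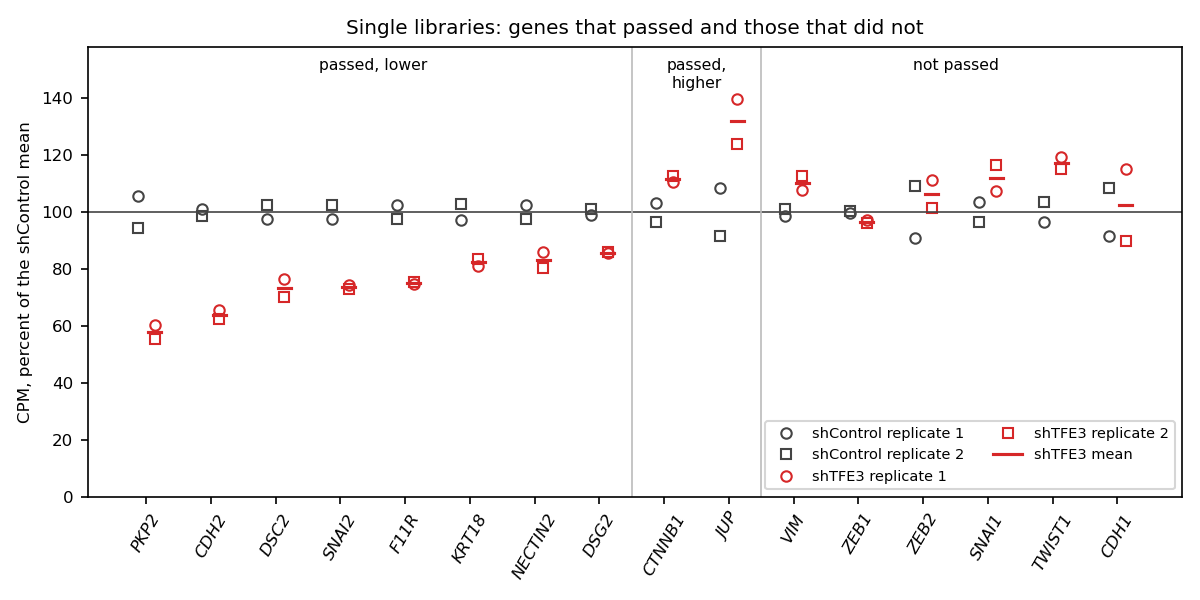
CPM of single libraries as a percent of the shControl mean (y axis) for the 10 genes that passed and for VIM, CDH1 and the 4 tested mesenchymal factors that did not; a red bar marks the shTFE3 mean. The 8 lower genes have both red libraries below both black ones, while in ZEB2 and CDH1 red and black libraries overlap.

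Of the 25 tested epithelial genes 2 rose, 6 fell and 17 did not pass (32.0% called, beside 23.3% of all tested genes, 10.3% higher and 12.9% lower). Of these 25 genes, 16 had a negative log2 fold change. The median was -0.15, beside 0.0015 over all tested genes, of which 49.7% were negative. By library, the epithelial median difference from the control mean was 0.022 and -0.022 in the control libraries against -0.15 and -0.14 in the knockdown. Both knockdown libraries lay below both controls. The 2 control values mirror each other because each gene was set against its own control mean, so they centre on 0 by construction. The 5 tested mesenchymal factors had a median of 0.089, with 3 positive and 2 negative values. The difference between these groups of genes was not tested. Falls of CDH2 and SNAI2, whose products are associated with the mesenchymal state, stood beside falls of 6 epithelial genes. These were PKP2, F11R, KRT18, DSC2, DSG2 and NECTIN2, while JUP and CTNNB1 rose. The SNAI2 call was at the threshold (edgeR adjusted p 0.0498). By DESeq2 SNAI2, CTNNB1 and DSC2 did not pass (adjusted p 0.311, 0.0605 and 0.125).

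**Figure D5:**
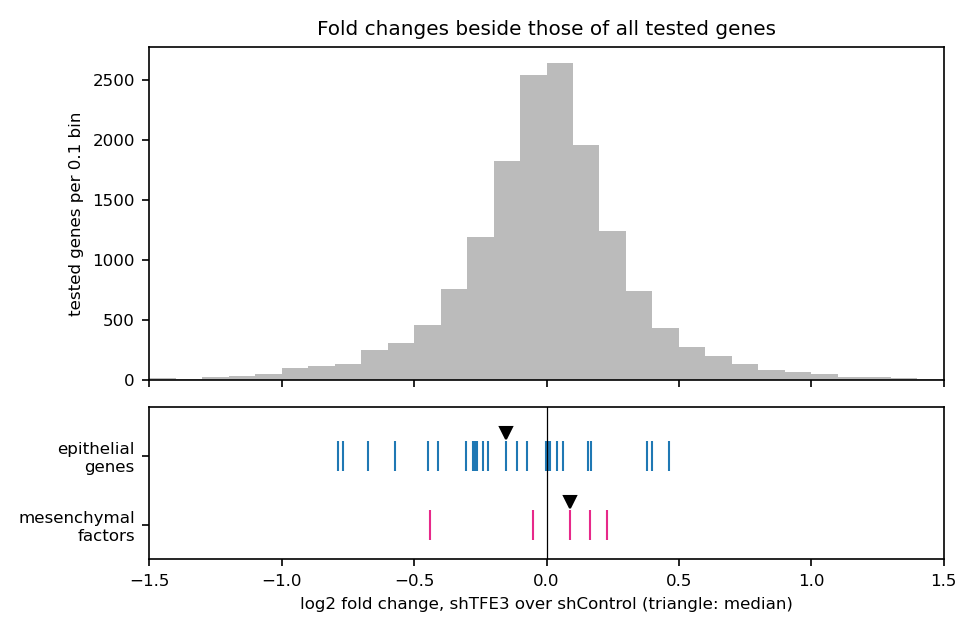
Histogram of the log2 fold changes of all 15950 tested genes, drawn between -1.5 and 1.5 (top), and the values of the 25 tested epithelial genes and 5 mesenchymal factors as ticks with their medians as triangles (bottom). The epithelial median lies at -0.15 and that of the mesenchymal factors at 0.089, both within the bulk of all genes.

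The calls went with depth, as they did over all tested genes. Of all 15950 tested genes 3709 passed, and 3392 of these were among the 12183 with a mean of at least 50 counts. A smaller share of all genes thus passed below that level. The 10 genes that passed here were all among the 24 at that level (41.7%, against 27.8% of all genes there). By edgeR 0 of the 8 tested genes below it passed. So few genes cannot show a difference from other genes of low count. None of those 8 had an unadjusted p under 0.05 (the smallest was 0.0938, EPCAM), and DESeq2 passed 0 as well, giving 4 of them (CDH3, EPCAM, CGN and ESRP2) no adjusted p. For those 8, CDH3, EPCAM, OCLN, CGN, DSP, KRT7, ESRP1 and ESRP2, the 95% intervals reached up to 1.67 on the log2 scale. For the 14 better covered genes that did not pass, no interval reached beyond 0.76.

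Of 100 further genes of the same structures and programmes 63 were tested, of which 6 rose and 19 fell (39.7%, beside 23.3% of all tested genes). These lists were chosen with earlier results of these data known, and the shares are not matched for depth. The difference in share was not tested and cannot be read as a result about these programmes. In the adherens junction list 6 of 10 tested genes fell, beside 12.9% of all tested genes. CDH17, CDH6 (above) and LIMA1 had the smallest p, and LIMA1, which encodes the actin-binding protein EPLIN that ties α-catenin to actin, fell from 132 and 133 CPM to 78.6 and 88.5 CPM (log2 fold change -0.67, edgeR adjusted p 2.4e-08). Of 15 tested genes for tight junctions and polarity 5 fell and 1 rose, beside 12.9% lower and 10.3% higher over all tested genes. CGNL1 (paracingulin) fell from 50.7 and 48.7 to 39.4 and 33.9 CPM (-0.44, edgeR adjusted p 0.000206). It had an adjusted p of 0.0567 without shTFE3 replicate 2. CXADR fell from 31 and 45 counts to 19 and 12 (-1.36, edgeR adjusted p 0.00219). The polarity scaffold PARD3 fell from 279 and 271 CPM to 229 and 245 CPM (-0.21, edgeR adjusted p 0.00641). Leaving out shControl replicate 2, shTFE3 replicate 1 or shTFE3 replicate 2 gave CXADR an edgeR adjusted p of 0.0565, 0.0603 or 0.133, and DESeq2 gave 0.0527. PARD3 was at 0.0882 when shControl replicate 1 was left out and at 0.105 when shTFE3 replicate 1 was.

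Of 10 tested genes of the wider epithelial programme 2 rose and 2 fell, beside 10.3% higher and 12.9% lower over all tested genes. MAL2, a protein of apical transport, fell from 59.5 and 68.3 CPM to 32.9 and 33.7 CPM (log2 fold change -0.94, edgeR adjusted p 2.07e-09), and SPINT2, an inhibitor of membrane serine proteases, from 50 and 48 counts to 19 and 24 (-1.25, edgeR adjusted p 0.000694, and 0.0525 without shTFE3 replicate 1). EHF, an epithelial ETS factor, rose from 2.99 and 3.35 CPM to 8.57 and 5.79 CPM (1.18, edgeR adjusted p 5.68e-05). Of 3 tested desmosome and plaque genes only DSC3 passed (33.3% called, beside 23.3% of all tested genes). Of 14 other keratins 2 had enough counts (KRT10 and KRT15), neither of which passed.

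In the list of EMT factors and mesenchymal genes 6 of 23 tested genes fell, 2 rose and 15 did not pass (34.8% called, beside 23.3% of all tested genes). AXL, a receptor tyrosine kinase linked with EMT, fell from 463 and 451 CPM to 278 and 313 CPM (log2 fold change -0.63, edgeR adjusted p 1.32e-08), and the matrix protein gene SPARC from 1004 and 1060 to 814 and 813 CPM (-0.34, edgeR adjusted p 2.24e-05). FOXC1, a forkhead factor, rose from 22.98 and 24.9 to 38.8 and 34.5 CPM (0.61, edgeR adjusted p 8.69e-06).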

How the data were processed

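Polyadenylated RNA was read as pairs of 150 bases. The authors deposited a table of raw counts, 1 row per Ensembl identifier. The build was hg38 and the tools named were STAR, featureCounts, Trim Galore and DESeq2, per the submitters' processing notes. The notes used here give no annotation, strand setting or rule for multi-mapping reads. The authors also deposited results of their own for 546 genes, with a mean signal, log2 fold changes, a score (test statistic and standard errors) and p-values.

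Groups came from the sample titles. Counts were tested with edgeR 4.0.16 in R 4.3.3: TMM factors, filterByExpr, group as the only term, the quasi-likelihood test over 15950 genes and Benjamini-Hochberg adjustment at 0.05, with 2 residual and 22.4 prior degrees of freedom. Standard errors are the log2 fold change over the root of the test statistic, and intervals are at 95%. SD was over n = 2. A table of gene names gave symbols to 61369 of 61533 identifiers. Exon lengths are unions from GENCODE release 29 (GRCh38); 467 of 546 lay within 10% of the lengths in the authors' table. Promoter windows are RefSeq's. Alternatives were RLE and upper quartile factors, other filters, DESeq2 1.42.0, limma-voom (limma 3.58.1), a replicate block and single libraries left out. The edgeR procedure was tested on simulated data. Replicates differed beyond sampling noise (chi-square per degree of freedom 2.0 for the shControl pair, 3.3 for the shTFE3 pair), so no pair is 1 library deposited again. The genes and lists were chosen with earlier results of these data known. Values in every library are given for genes that passed, the mesenchymal factors, CDH1, CDH2, EPCAM and VIM, and up to 3 genes with the smallest p among those passing in each further list. CDH13, CDH16, KRT10, KRT15, LHX1 and NDUFA4L2 lie outside that rule and were named after their values were seen. So were the library values of CTNNA1, CTNND1, NECTIN1, TJP1, PKP3, PKP4, KRT8, KRT80 and the low-count genes.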

Additional observations from a re-analysis of the deposited data

How the results depend on the processing

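The median log2 fold change of the epithelial genes stayed between -0.16 and -0.13 under all 11 alternatives. Counts of calls moved more. Of the 37 genes 10 passed, against 1 without a filter on low counts and 2 to 8 with single libraries left out (8 and 6 when shControl replicate 1 or 2 was missing, 4 and 2 when shTFE3 replicate 1 or 2 was). Of the epithelial genes 2 rose and 6 fell. With no filter on low counts 0 rose and 0 fell, 1 rose by DESeq2 and 1 with the replicate block, and with single libraries left out 0 to 1 rose and 1 to 6 fell. SNAI2 was the only mesenchymal factor to pass; 0 passed with RLE or upper quartile factors, no filter on low counts, DESeq2, limma-voom, the replicate block or any single library left out. Of the further genes 25 passed, against 4 with no filter on low counts, 16 by DESeq2 and 9 to 19 with single libraries left out. The log2 fold changes of the 10 genes, and of the 13 further genes for which the alternatives were computed, kept their sign in each alternative that gave a value. The replicate numbers gave no sign of pairing (correlation of deviations -0.069 over 12183 genes); with the replicate block 8 of the 37 genes passed, CTNNB1 and SNAI2 being lost. Fits without 1 library have 1 residual degree of freedom and lower power, so a lost call there does not show a smaller effect. Low counts limit CDH3, EPCAM, CGN, DSP, KRT7 and the ESRP genes most.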
